A study of Mus musculus with 2 samples.

Results

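CD8 T cells were picked out of leukocytes of TSA tumours by the unique molecular identifiers (UMIs, each marking 1 captured RNA molecule) of a few defining genes. A cell was taken when it held at least 1 UMI of Cd3e, at least 1 of Cd3d or Cd3g and at least 1 of Cd8a or Cd8b1, no UMI of Ncr1, and C1qa, C1qb and C1qc together under 0.2% of its UMIs. This gate kept 248 of 6198 cells. Because these counts chose the cells, the levels of those 9 genes are a description of the gate and are not reported as findings.

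The TSA line comes from a mammary adenocarcinoma that arose in a BALB/c mouse, and its cells were injected into mice of that strain. The study names injection under the skin or into the mammary fat pad, and not which was used for these tumours. Mice of one group were untreated, and those of the other drank water with 0.5% nicotinamide (NAM, a form of vitamin B3 and a precursor of the coenzyme NAD) for 10 days, starting when the tumours were established. Tumours of 3 mice per group were dissociated and pooled, CD45+ cells (leukocytes) were enriched with magnetic beads, and 1 droplet library with 3′ capture was made per group. The labels give no genotype beyond the strain and no age, and cells of a pool cannot be traced to a mouse. Pooling and the bead enrichment limit what a group stands for, and both groups share them.

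Each group is a single library, so differences have no replicate check and were not tested, and NAM cannot be told apart from any difference between the libraries or pools. Cells are not replicates. All intervals are exact 95% intervals that cover counting error only. A level is given as CPM, the UMIs of a gene in counts per 1000000 UMIs of the CD8 T cells of that library, and a log2 ratio is NAM over untreated on that scale.

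CD8 T cells recognise peptides on MHC class I through the T-cell receptor and kill with granzymes, perforin and FAS ligand. In tumours they commonly pass from a memory-like state that keeps TCF1 (Tcf7) and the chemokine XCL1 to effector and dysfunctional states that carry granzyme B and the inhibitory receptors PD-1, LAG-3 and TIM-3. CXCR6 marks T cells held in tissues, whereas CCR7 and KLF2 belong to cells that recirculate through lymph nodes.

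The gate gave 96 of 2922 cells in the untreated library, a share of 3.29% (Clopper-Pearson interval 2.67 to 4.00), and 152 of 3276 in the NAM library, a share of 4.64% (3.95 to 5.42). The log2 ratio of the shares was 0.50 (0.12 to 0.88). Of all cells that met the CD3, Ncr1 and C1q conditions, those with a Cd8a or Cd8b1 UMI were 96 of 180 (53.3%, 45.8 to 60.8) in the untreated and 152 of 235 (64.7%, 58.2 to 70.8) in the NAM library, so the intervals of this share overlap. The same gate with no Cd8a or Cd8b1 UMI gave 84 and 83 CD8-negative T cells. Cells with an Ncr1 UMI, no Cd3e UMI and low C1q, called NK cells without Cd3e, numbered 80 and 40. These shares are of cells that passed bead enrichment and the authors' quality filter, not of cells in the tumour.

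CD8 T cells of the untreated library held 506724 UMIs, with a median of 4519 per cell and a range of 3025 to 21576. Those of the NAM library held 814308 UMIs, with a median of 4497 and a range of 3021 to 28164. The 2 sets were thus of like depth, whereas the median over all other cells was 9198 and 9306 UMIs. The median mitochondrial share was 2.06% and 2.13%. The deepest CD8 T cell, in the NAM library, held 28164 UMIs (the next 24778), which is 3.46% of the UMIs of its set, and results are given with and without it. The libraries share 11 cell barcodes, of which 3 mark a CD8 T cell of the NAM library and 0 one of the untreated library.

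Near the limits of the gate, 13 members had a single Cd8a or Cd8b1 UMI and 15 had 2, while the median member had 9. The member with the highest C1q share stood at 0.176%, and the lowest cell left out for C1q alone stood at 0.422%. Another 3 cells were left out only for an Ncr1 UMI. Of the members, 11 held a Cd4 UMI and 7 a Foxp3 UMI, and 42 held no C1q UMI at all.

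RNA of other cell types was low in most members, and 3 members stood apart. Macrophage markers took a median of 0.209% of a member's UMIs, against 6.23% in C1q-high cells (the 4303 macrophage-rich cells of both libraries, defined by C1q alone). The summed level of the macrophage list was 2220 CPM in untreated and 2309 CPM in NAM cells. The 8 MHC class II genes, which T cells of mice barely express, took 8.76% of the UMIs of 1 untreated cell (1890 of 21576) and 7.83% of those of 1 NAM cell (1086 of 13875), and no more than 0.929% in any other member. In another NAM cell red cell genes took 57.6% of 11567 UMIs. The NAM cell rich in MHC class II held 2 UMIs of Cd8a or Cd8b1, 4 of the CD3 genes, 1 of Nkg7 and 529 of Cst3. The untreated one held 8, 31, 31 and 63. The label of that NAM cell as a CD8 T cell is thus weak, though it met the gate and stays in the main values. No doublet caller was run and the study's methods name none, so droplets with more than 1 cell may remain. Each result that rests on these 3 cells is given without them. B cell markers held 3 UMIs in each set, gamma delta T-cell markers 2 and 0, and tumour and stromal markers 16 and 30.

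The label was checked on genes that the gate did not use. Nkg7, a granule membrane protein of cytotoxic lymphocytes, had a UMI in 97.6% of members, and Cxcr6 in 72.6%. In all 5950 other cells, which were deeper, these shares were 11.9% and 2.84%. Of those cells 4303 are C1q-high, so the comparison is mainly with macrophage-rich cells. The cytotoxic list, which holds Nkg7, was higher in NK cells without Cd3e than in CD8 T cells. It stood at 15982 against 6982 CPM in the untreated and 17123 against 8136 CPM in the NAM library. A high Nkg7 share is therefore no check against NK cells. Among genes with at least 100 UMIs in CD8 T cells, the 15 with the largest fold over all other cells included Cd8a, Cd8b1 and Cd3e, which the gate fixed. The other 12 were Slc17a6, Gm156, Gzmk, Ifng, Cnih2, Rgs16, Cxcr6, Nrn1, Pdcd1, Gldc, Nrgn and Klrc1. This is a description and no test, since cells chosen on T-cell genes bring the genes that go with them.

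Some of these genes have no known part in killing. Slc17a6, a vesicular glutamate transporter, stood at 193 CPM in CD8 T cells and 0.768 CPM in all other cells, a fold of 251, with a UMI in 39.1% of members. Gm156 stood at 106 against 0.434 CPM, with a UMI in 16.9% of members. Cnih2, an auxiliary protein of glutamate receptors, was 130-fold, the neuritin gene Nrn1 92.7-fold and Gldc, a glycine-cleaving enzyme, 75.0-fold higher. Nrgn (neurogranin) was 74.2-fold higher over all other cells but 1.72-fold over NK cells without Cd3e, which held 136 CPM. Slc17a6, Nrn1 and Gldc had 0 UMIs in NK cells without Cd3e. Against CD8-negative T cells the folds were 9.32 for Slc17a6, 34.1 for Gm156 and 2.97 for Nrn1.

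Genes of the CD94/NKG2A receptor were higher in CD8 T cells than in the other T cells, and by a smaller factor than in NK cells. Klrc1, which encodes the inhibitory receptor NKG2A, stood at 843 CPM, 7.27-fold above CD8-negative T cells and 1.56-fold above NK cells without Cd3e. Its partner Klrd1 (CD94) stood at 1090 CPM, 6.05-fold and 1.47-fold above the same sets. The NK receptor list as a whole was lower than in NK cells, at 3819 and 4102 CPM against 6716 and 8089 CPM in the untreated and NAM libraries. Klrc1 and Klrc2 are near copies, and 56.3% of the 50-base words in the last 500 bases of Klrc1 also occur in Klrc2, so counts of this pair are uncertain. Pdcd1 (PD-1) was 3.11-fold above CD8-negative T cells and 19.7-fold above NK cells, and Cxcr6 was 3.20-fold and 7.90-fold above them. Gzmb was lower in CD8 T cells than in NK cells without Cd3e in both libraries, at 452 against 1319 CPM in the untreated and 851 against 2871 CPM in the NAM library. In CD8-negative T cells Gzmb stood at 829 and 762 CPM, above CD8 T cells in the untreated and below them in the NAM library.

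**Figure D1:**
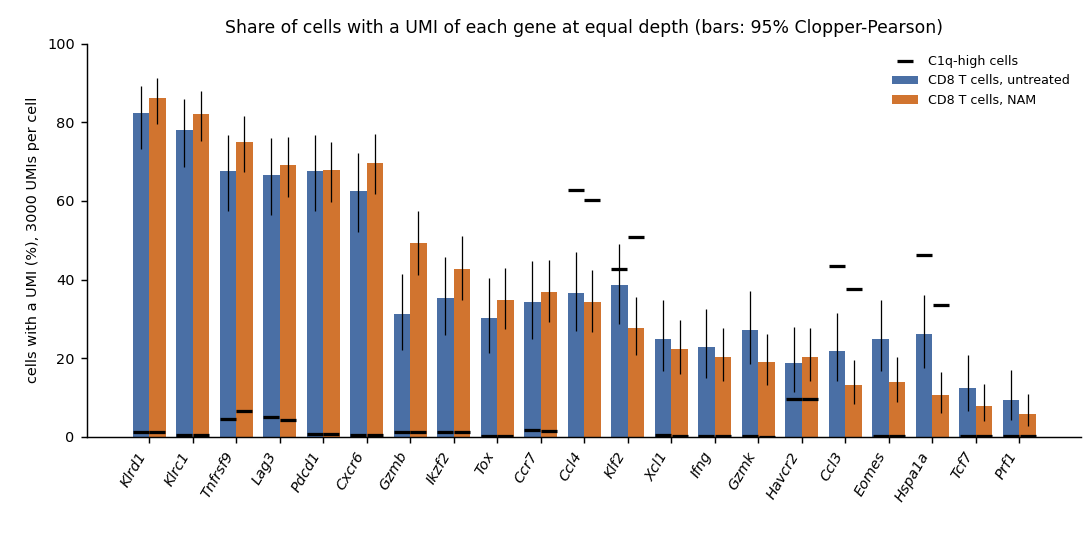
Share of CD8 T cells with a UMI of each gene, in percent, after every cell was thinned to 3000 UMIs, for the 96 untreated (blue) and 152 NAM cells (orange), with exact 95% intervals as thin bars and the share in C1q-high cells as black marks. Gzmb has the widest gap between the libraries of the genes plotted (31.2% and 49.3%), whereas Ccl3, Ccl4, Klf2 and Hspa1a lie at or below the C1q-high share.

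Shares of positive cells were compared at equal depth, after 3000 UMIs had been drawn at random from each cell (thinning), and 0 cells were too shallow for this. C1q-high cells, with median depths of 9676 and 9775 UMIs before thinning, served as a type that should lack the T-cell genes. Klrc1 was seen in 78.1% of untreated and 82.2% of NAM cells, Pdcd1 in 67.7% and 67.8%, Lag3 in 66.7% and 69.1% and Cxcr6 in 62.5% and 69.7%, against at most 5.10% in C1q-high cells. Without thinning, the shares were 81.2% and 86.8% for Klrc1 and 72.9% and 75.7% for Pdcd1. Most members of either library thus had a UMI of these receptors, whereas few had Tcf7 (12.5% and 7.89%). Macrophages themselves express Ccl3, Ccl4, Klf2 and Hspa1a, the share of C1q-high cells with a UMI was at or above that of CD8 T cells, and no difference is read from the shares of these 4 genes.

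Across genes, NAM and untreated CD8 T cells differed about as often upward as downward. Of 3267 genes with at least 50 UMIs over both sets, 216 were at least 1.5-fold higher in NAM cells (6.61%) and 199 at least 1.5-fold lower (6.09%). Without the deepest cell, 204 were higher and 195 lower of 3200. With median-of-ratios scaling, which moves every ratio down by 0.06, 165 were higher and 251 lower, so the balance of the 2 directions depends on the scaling. Of the 5736 genes with at least 20 UMIs, which the counts over gene lists use, 613 were higher (10.7%) and 608 lower (10.6%). These counts hold genes past a fold and not genes shown to change. The genes with at least 100 UMIs and the largest ratios, other than gate genes and genes of the fixed marker lists of other cell types, were Gzmf, Xcl1, Mrps17, Uchl3, Ifitm1, Cst3, Fabp5, Mcm6, Ifitm3 and Gzmb. Those with the smallest were Hspa1a, Ccl3, Ier5l, Cfp, Kdm6b, Gm10263, Cbx3, Cdk6, Dnajb1 and Ybx3. Of these, Ifitm1, Cst3 and Cfp had log2 ratios of 0.08, 0.05 and 0.07 without the 3 members rich in MHC class II or red cell UMIs.

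**Figure D2:**
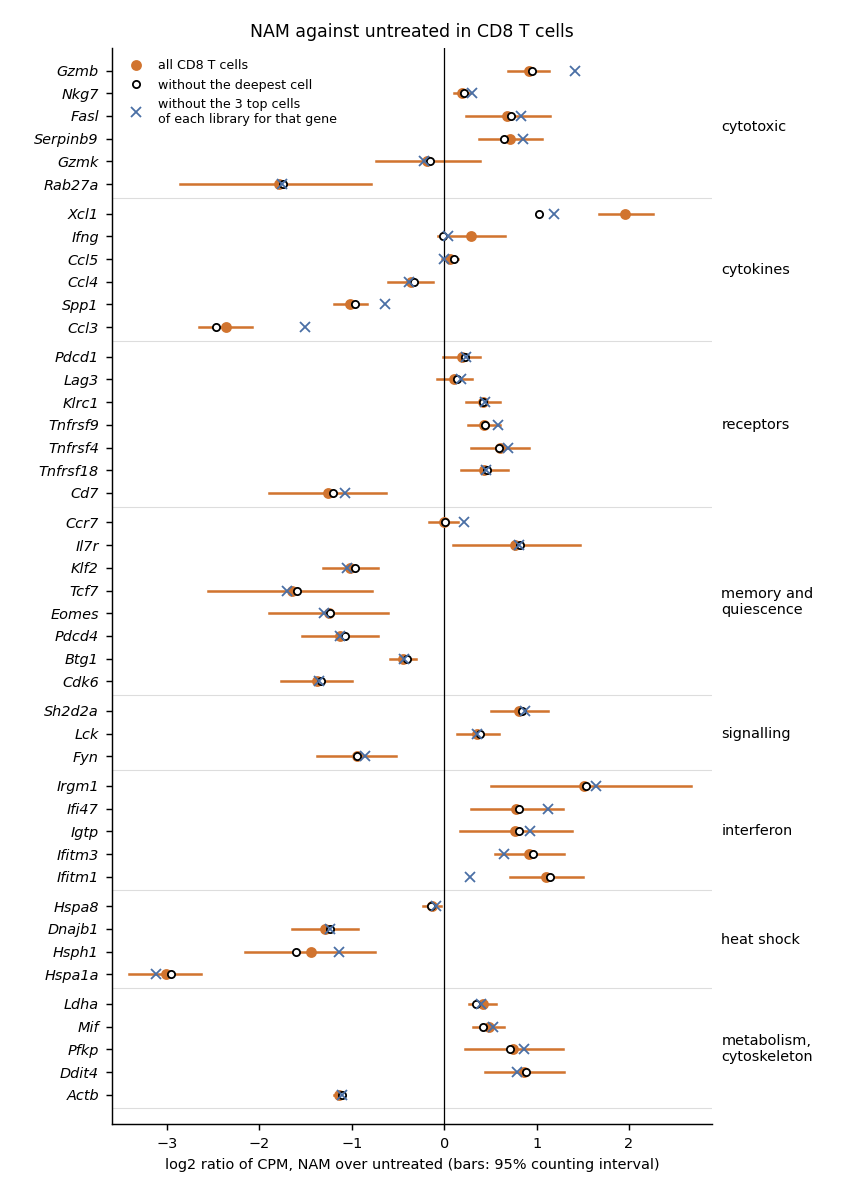
Log2 ratio of CPM, NAM over untreated, of named genes in CD8 T cells, grouped by role. Filled points with bars give all cells with the exact 95% counting interval, open circles leave out the deepest cell, and crosses leave out the 3 cells richest in that gene in each library. Xcl1 lies at 1.96 with and 1.03 without 1 cell, Gzmb lies at 0.91 or above in each, and Hspa1a lies at -2.96 or below.

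Cytotoxic genes were higher in NAM cells in sum. Of the 19 members of the cytotoxic list with at least 20 UMIs, 8 were at least 1.5-fold higher and 3 lower (beside 10.7% and 10.6% over all genes) and 8 lay within the fold, with a median log2 ratio of 0.20 against 0.03 over all genes. The 5 granzymes C to G make up most of those 8 and share their counts among few cells, as given further on. The list's summed level was 6982 CPM in untreated and 8136 CPM in NAM cells, a log2 ratio of 0.22 (0.16 to 0.28), and 0.23 without the deepest cell. The median cell gave 61.2 UMIs of the list per 10000 in untreated (range 9.80 to 285) and 82.4 in NAM (range 6.24 to 657), so the sets overlap widely.

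Gzmb encodes granzyme B, the protease that starts apoptosis in target cells, and lies at chr14:56258838-56262260 on the minus strand (GRCm38). It held 229 UMIs in untreated cells (452 CPM, 395 to 514) and 693 in NAM cells (851 CPM, 789 to 917). The log2 ratio was 0.91 (0.70 to 1.14), 0.95 without the deepest cell and 1.42 when the 3 cells richest in Gzmb were dropped from each library. Cells with a UMI were 37 of 96 and 83 of 152, or 31.2% (22.2 to 41.5) and 49.3% (41.1 to 57.6) after thinning. The share of positive cells was thus higher in NAM cells as was the sum, though the counting intervals of the 2 shares overlap. In C1q-high cells 1.27% and 1.15% had a Gzmb UMI after thinning.

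Another 3 effector genes lay on the same side. Nkg7, the most abundant of the list, stood at 3345 and 3831 CPM, a log2 ratio of 0.20 (0.11 to 0.28). Fasl, the FAS ligand that triggers death receptors, stood at 113 and 181 CPM (0.68, 0.23 to 1.15). Serpinb9, the inhibitor that shields killer cells from their own granzyme B, stood at 195 and 321 CPM (0.71, 0.38 to 1.06). Each of these ratios was at least as large without the 3 top cells of each library for that gene. With no C1q UMI, Fasl was at -0.26 (-1.19 to 0.71) and Serpinb9 at -0.14 (-1.19 to 0.94), and Serpinb9 was at -0.11 (-0.73 to 0.53) in cells with under 3 G2 and M phase UMIs.

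Other parts of the killing machinery were lower in NAM cells or not separable at this depth. Gzmk, a granzyme of early effector and memory cells, held 48 and 68 UMIs, a log2 ratio of -0.18 (-0.74 to 0.38) whose interval holds 0. Prf1, the pore-forming perforin, held only 18 and 17 UMIs (-0.77, -1.81 to 0.27). Rab27a, which docks lytic granules at the membrane, held 28 and 13 UMIs (-1.79, -2.86 to -0.80), seen in 22 and 13 cells. Gzma was lower in sum, with 116 and 44 UMIs, but 112 of the 116 lay in 1 untreated cell. Without the 3 top cells of each library its log2 ratio was 1.29, so the direction for Gzma rests on single cells.

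Granzymes C to G, a cluster of proteases of strongly activated killer cells on the same chromosome as Gzmb, were counted mostly in NAM cells, and in few of them. They held 6 UMIs in 4 untreated cells and 283 UMIs in 15 NAM cells, yet 173 of the 283 lay in 1 cell and 84.5% in 3. Gzmf had 0 UMIs in untreated and 105 in NAM cells, at least 21.8-fold higher when 3 counts are allowed for the untreated set. Of the 105, 61 lay in 1 cell, and without the 3 top cells the log2 bound was 0.89, against 4.44 with them. In cells with under 3 G2 and M phase UMIs both sets were at or under 3 counts, so no fold is given. Gzmc had 0 and 39 UMIs, at least 8.09-fold higher, with a log2 bound of 3.02 that was 0.30 without the 3 top cells. Gzmd had 5 and 77 UMIs (log2 ratio 3.26, 1.98 to 4.92), and Gzmd and Gzme share 15.1% of the 50-base words of their last 500 bases, so this pair is uncertain. In a median NAM cell the group was at 0.

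The 250 bases before the start of Gzmb, Gzmc and Gzmf are shown because these genes sit side by side and were higher in NAM cells together, though in different numbers of cells. They were taken from RefSeq (GRCm38.p6) and are written 5′ to 3′ on the minus strand, the strand of each gene, at chr14:56262335-56262584 for Gzmb, chr14:56234658-56234907 for Gzmc and chr14:56211408-56211657 for Gzmf. Capitals mark TGTGGT, the core bound by RUNX factors, and TGACGTC, a form of the cyclic AMP response element, each searched on both strands.
Gzmb: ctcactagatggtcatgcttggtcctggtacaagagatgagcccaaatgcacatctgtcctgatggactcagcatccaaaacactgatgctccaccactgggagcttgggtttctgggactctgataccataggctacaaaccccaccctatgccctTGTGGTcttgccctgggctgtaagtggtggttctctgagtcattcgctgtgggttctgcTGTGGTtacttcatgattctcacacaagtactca
Gzmc: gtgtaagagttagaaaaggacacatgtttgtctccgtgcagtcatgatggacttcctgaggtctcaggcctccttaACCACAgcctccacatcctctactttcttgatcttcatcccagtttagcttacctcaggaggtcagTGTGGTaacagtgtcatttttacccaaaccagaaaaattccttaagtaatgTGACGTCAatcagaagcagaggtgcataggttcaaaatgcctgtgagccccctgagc
Gzmf: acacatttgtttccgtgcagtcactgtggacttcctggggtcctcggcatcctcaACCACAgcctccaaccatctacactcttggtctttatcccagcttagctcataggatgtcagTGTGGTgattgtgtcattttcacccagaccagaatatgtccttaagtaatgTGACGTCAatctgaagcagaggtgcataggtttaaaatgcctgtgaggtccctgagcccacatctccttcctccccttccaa
Distances are from the RefSeq start, which lies further out than the GENCODE start for Gzmb. TGTGGT occurs at 93 and 34 bases before the start of Gzmb, at 174 and 108 before Gzmc and at 195 and 133 before Gzmf. TGACGTC occurs before Gzmc and Gzmf, where its matches on both strands overlap, and not in this window before Gzmb. Of 32851 such windows over all genes, 14.0% hold TGTGGT and 2.78% hold TGACGTC. A match is a description of letters and not a site shown to be bound.

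**Figure D3:**
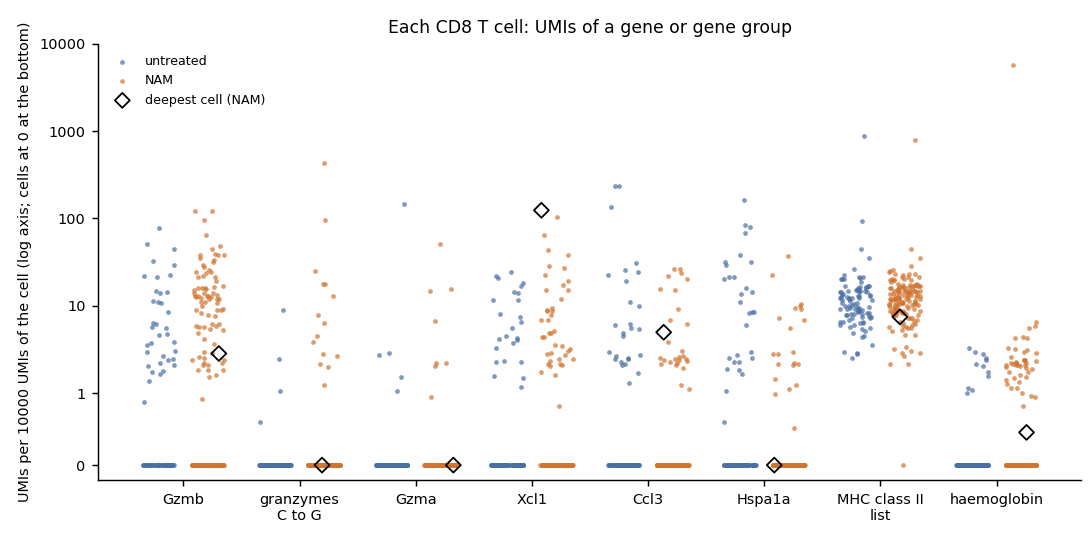
UMIs per 10000 UMIs of each CD8 T cell (log axis, cells at 0 at the bottom) for 6 genes or gene groups, the MHC class II list and haemoglobin, with untreated cells in blue, NAM cells in orange and the deepest cell as a diamond. Gzmb is spread over many NAM cells, whereas granzymes C to G, Gzma and haemoglobin each have 1 cell far above the rest.

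More cytokine and chemokine genes lay below the fold than above it. Of 17 members with at least 20 UMIs, 1 was at least 1.5-fold higher and 6 were lower, beside 10.7% and 10.6% over all genes, and 10 lay within the fold. The summed log2 ratio was -0.08 (-0.14 to -0.02), and -0.13 (-0.19 to -0.07) without the deepest cell, and the median was -0.05. Without the 3 cells rich in MHC class II or red cell UMIs the sum was -0.04 (-0.10 to 0.01), and without the 3 top cells of each library -0.02 (-0.09 to 0.04), with intervals that hold 0. The sum turned to 0.53 in the 42 cells with no C1q UMI and to 0.28 in the 85 cells with under 3 UMIs of the G2 and M phase list. Ccl5, a chemokine for T cells and NK cells and by far the most abundant of the list, was level at 3509 and 3660 CPM (0.06, -0.03 to 0.15).

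Xcl1, the chemokine that draws cross-presenting dendritic cells through XCR1, was the only member above the fold, and the size of its ratio depended on 1 cell. It held 113 UMIs in 25 untreated cells (223 CPM) and 707 UMIs in 42 NAM cells (868 CPM), a log2 ratio of 1.96 (1.67 to 2.26). The deepest cell alone held 349 of the 707, and without it the ratio was 1.03 (0.72 to 1.35). Without the 3 top cells of each library it was 1.19 (0.79 to 1.60). After thinning, 25.0% of untreated and 22.4% of NAM cells had an Xcl1 UMI, so the share of positive cells was not higher in NAM. The higher sum therefore lay in the amount per positive cell. In the cells with under 3 G2 and M phase UMIs the ratio was -0.42 (-1.15 to 0.33).

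Ifng and Tnf were not separable from untreated at this depth. Ifng, the cytokine that activates macrophages and MHC expression, stood at 191 and 235 CPM (log2 ratio 0.29, -0.07 to 0.66), and the ratio was -0.01 without the deepest cell. It was seen in 22.9% and 20.4% of thinned cells. Tnf held 12 and 19 UMIs (-0.02, -1.14 to 1.15).

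Ccl3, a chemokine for monocytes and T cells that activated killer cells release, was lower in NAM cells. It held 429 UMIs in 27 untreated cells (847 CPM, 768 to 931) and 134 in 28 NAM cells (165 CPM, 138 to 195), a log2 ratio of -2.36 (-2.65 to -2.08). In the untreated set 68.1% of the UMIs lay in 3 cells, the highest with 146, and without the 3 top cells of each library the ratio was -1.51. In the cells with no C1q UMI it was -0.37 (-1.46 to 0.75), and in those with under 3 G2 and M phase UMIs -0.18 (-0.98 to 0.65). Its neighbour Ccl4 stood at 501 and 391 CPM (-0.36, -0.60 to -0.12), but at 0.92 (0.05 to 1.86) and 0.52 (-0.19 to 1.28) in the same subsets. Spp1 (osteopontin), a secreted adhesion protein, stood at 1156 and 571 CPM (log2 ratio -1.02, -1.20 to -0.84), and the ratio was -0.64 without the 3 top cells. After thinning, 36.5% of untreated and 40.8% of NAM cells had an Spp1 UMI, so the share of positive cells was not lower in NAM. In C1q-high cells that share was 29.3% and 27.8%. C1q-high cells carry Ccl3 and Ccl4 UMIs in 37.5% to 62.7% of thinned cells, and how much free RNA adds to these counts was not tested.

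Inhibitory receptors lay within the fold, with a sum above 0. None of the 13 members with at least 20 UMIs was past the 1.5-fold in either direction. Over all genes, 10.7% were higher and 10.6% lower, so few of 13 would be past it at that share. Their summed log2 ratio was 0.21 (0.11 to 0.30). Pdcd1 stood at 622 and 709 CPM (0.19, -0.01 to 0.39) and Lag3 at 720 and 776 CPM (0.11, -0.08 to 0.30), so both intervals hold 0. Havcr2 (TIM-3) held 44 and 66 UMIs (-0.10, -0.67 to 0.49). Klrc1 stood at 699 and 933 CPM (0.42, 0.23 to 0.60), above the counting error but under the fold. Ctla4, an inhibitory receptor that competes for CD28 ligands, held 68 and 143 UMIs (0.39, -0.04 to 0.83).

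Costimulatory receptors were higher in NAM cells in sum. Of 15 members, 12 had a ratio above 0 and 3 below it, from -0.97 to 0.85. Of these 15, 3 were at least 1.5-fold higher and 1 was lower (10.7% and 10.6% over all genes) and 11 lay within the fold, with a summed log2 ratio of 0.28 (0.21 to 0.34) and a median of 0.24. The list holds receptors of the TNF receptor family and others. Tnfrsf9 (4-1BB), induced by T-cell receptor signals, stood at 811 and 1092 CPM (0.43, 0.26 to 0.60). Tnfrsf4 (OX40) stood at 239 and 362 CPM (0.60, 0.29 to 0.92), and Tnfrsf18 (GITR) at 369 and 497 CPM (0.43, 0.18 to 0.69). Leaving out the 3 top cells of each library left all 3 ratios between 0.46 and 0.70, but in the 42 cells with no C1q UMI Tnfrsf9 was at -0.49 (-0.94 to -0.03) and Tnfrsf4 at -0.96 (-1.99 to 0.04). Slamf6, a receptor of memory-like cells, was the member below the fold, with 28 and 23 UMIs (-0.97, -1.83 to -0.12). Cd7, a T-cell surface protein counted with the NK receptors, held 55 and 37 UMIs (-1.26, -1.90 to -0.63), and was at 1.44 (-0.83 to 4.69) with no C1q UMI.

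In proximal T-cell receptor signalling, 16 of 19 members lay within the fold, 2 above and 1 below it, against 10.7% and 10.6% over all genes. Sh2d2a, an adaptor that binds LCK, was higher in NAM cells at 243 and 426 CPM (0.81, 0.51 to 1.12) and was seen in 46.9% and 67.8% of thinned cells. Lck, the kinase that phosphorylates CD3 chains, stood at 470 and 603 CPM (0.36, 0.13 to 0.59). Fyn, the other kinase of that family in T cells, was lower at 203 and 106 CPM (-0.94, -1.38 to -0.52). The ratios of these kinases thus lay on opposite sides of 0.

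Genes of naive, memory and quiescent cells lay on both sides between the libraries. Of 17 members of that list, 3 were at least 1.5-fold higher and 5 lower in NAM cells (10.7% and 10.6% over all genes), with 9 within the fold. The summed log2 ratio was 0.26 (0.17 to 0.34) and 0.14 without the deepest cell, and Xcl1 is in this list as well.

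Tcf7, Klf2 and Eomes, which encode transcription factors, were lower in NAM cells, though not under every choice of cells. Tcf7, which encodes TCF1, held 35 UMIs in 19 untreated and 18 in 15 NAM cells (69.1 and 22.1 CPM), a log2 ratio of -1.64 (-2.55 to -0.78). Klf2 held 214 and 170 UMIs (422 and 209 CPM), a ratio of -1.02 (-1.32 to -0.72). Eomes, a factor of memory and late effector CD8 T cells, held 53 and 36 UMIs in 31 and 28 cells (-1.24, -1.90 to -0.61). All 3 turned in the cells with no C1q UMI, to 1.86 (-1.19 to 7.38) for Tcf7, 0.83 (-0.02 to 1.74) for Klf2 and 0.27 (-2.53 to 3.74) for Eomes, with intervals that hold 0.

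Of the other genes of the naive and memory list that are named, 3 were level or higher. Ccr7 stood at 1076 and 1072 CPM, a ratio of 0.00 (-0.16 to 0.15). Il7r, the receptor for the survival cytokine IL-7, held 26 and 71 UMIs (0.76, 0.10 to 1.47). Dapl1, found in naive and memory CD8 T cells, held 18 UMIs in 7 untreated and 77 in 13 NAM cells (1.41, 0.66 to 2.24). Among the 27 lineage transcription factors with at least 20 UMIs, 1 was higher and 3 lower past the fold (10.7% and 10.6% over all genes). The 23 within it included Tox (0.16, -0.29 to 0.62), a factor of dysfunctional T cells. Irf8 stood at 570 and 780 CPM (0.45, 0.25 to 0.66), and Irf8 and Il7r were at -0.20 and -0.31 with no C1q UMI.

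Genes that restrain cell division were lower in NAM cells in sum. Of 15 members of that list, 11 had a ratio below 0 and 4 above it. Past the fold, 0 were higher and 4 lower (10.7% and 10.6% over all genes), and 11 lay within it, with a summed log2 ratio of -0.39 (-0.48 to -0.30) and a median of -0.44. Klf2 counts here as well. Pdcd4, an inhibitor of translation, held 121 and 89 UMIs (-1.13, -1.54 to -0.72) and was seen in 46.9% and 25.0% of thinned cells. Cdkn1b, the CDK inhibitor p27, held 32 and 21 UMIs (-1.29, -2.16 to -0.45), but was at 1.27 (-2.07 to 6.89) with no C1q UMI. Btg1, an antiproliferative gene, stood at 1533 and 1127 CPM (-0.44, -0.58 to -0.30), within the fold. In the 42 cells with no C1q UMI, taken by themselves, the list lay at 0.12 (-0.13 to 0.37).

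The G2 and M phase list was level over all cells but lower without the deepest one, and the S phase list was higher in NAM cells in sum. The G2 and M phase list had a summed log2 ratio of 0.00 (-0.11 to 0.11), with 2 members higher and 2 lower of 19, near the 10.7% and 10.6% over all genes. Without the deepest cell its sum was -0.12 (-0.23 to -0.0018), and its median went from 0.04 to -0.11. The S phase list had 0.18 (0.06 to 0.30) and a median of 0.26, with 5 of 23 members at least 1.5-fold higher and 0 lower (10.7% and 10.6% over all genes). Mcm6, part of the replicative helicase, held 26 and 80 UMIs (0.94, 0.28 to 1.64), and Tk1, thymidine kinase of S phase, held 15 and 52 (1.11, 0.26 to 2.05), but Tk1 was at -0.73 with no C1q UMI, with an interval that holds 0. Cdk6, a kinase that drives entry into S phase, was lower at 294 and 113 CPM (-1.38, with an interval that lies below 0). Cells with a UMI of Mki67, Top2a or Birc5 were 20.8% (13.2 to 30.3) and 16.4% (10.9 to 23.3) after thinning, close to the 19.8% and 17.5% of C1q-high cells.

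Interferon response genes were higher in NAM cells in sum. Of 25 members of the IFNγ list, 7 were at least 1.5-fold higher and 2 lower, beside 10.7% and 10.6% over all genes, and 16 lay within the fold, with a summed log2 ratio of 0.18 (0.10 to 0.26) and a median of 0.10. Of 28 members of the type I list, 6 were higher, 3 lower and 19 within the fold, beside the same background shares, with 0.37 (0.28 to 0.46) and a median of 0.22. Irgm1, Igtp and Ifi47 encode GTPases that attack the vacuoles of intracellular parasites. Irgm1 held 10 and 46 UMIs (1.52, 0.51 to 2.67), Igtp 33 and 90 (0.76, 0.17 to 1.38) and Ifi47 48 and 132 (0.78, 0.29 to 1.28). All 3 were as high or higher without the 3 top cells of each library. Irf1, the transcription factor upstream of many of these genes, held 25 and 70 UMIs (0.80, 0.12 to 1.52). With no C1q UMI, at few counts, the IFNγ list was at 0.035, Irgm1 at 0.69, Ifi47 at -0.029, Igtp at -0.20 and Irf1 at -0.51, and the intervals of these 4 genes hold 0.

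Part of the type I list rests on 1 cell that also carries MHC class II. Ifitm1, a membrane protein that blocks viral entry, held 71 UMIs in 10 untreated and 245 in 14 NAM cells (1.10, with an interval that lies above 0), and 125 of the 245 lay in the NAM cell rich in MHC class II. Without the 3 members rich in other cells' RNA its ratio was 0.08, and the list's was 0.30. Ifitm3 held 82 and 249 UMIs (0.92, 0.55 to 1.30), and 0.75 without those 3 members. Ifitm1 and Ifitm3 share 3.33% of the 50-base words of their last 500 bases.

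The windows of 250 bases before Irgm1 and Igtp are shown because both are textbook IFNγ-induced genes whose ratios were as high without the 3 top cells of each library. They lie at chr11:48871421-48871670 on the minus strand for Irgm1 and chr11:58199306-58199555 on the plus strand for Igtp (RefSeq, GRCm38.p6), and capitals mark the core of the interferon-stimulated response element, GAAA and GAAA with any 2 bases between, on either strand.
Irgm1: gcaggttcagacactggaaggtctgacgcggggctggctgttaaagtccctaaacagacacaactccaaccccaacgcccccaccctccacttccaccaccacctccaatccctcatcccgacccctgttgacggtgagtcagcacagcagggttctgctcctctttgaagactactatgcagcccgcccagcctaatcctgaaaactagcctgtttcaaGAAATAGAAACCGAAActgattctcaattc
Igtp: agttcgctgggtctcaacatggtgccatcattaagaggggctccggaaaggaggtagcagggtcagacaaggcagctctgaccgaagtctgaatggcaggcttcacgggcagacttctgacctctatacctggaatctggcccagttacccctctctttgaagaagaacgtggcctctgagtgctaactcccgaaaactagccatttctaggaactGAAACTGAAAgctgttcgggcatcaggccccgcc
The motif occurs at 30 and 24 bases before the RefSeq start of Irgm1, as overlapping matches, and at 34 bases before Igtp. GENCODE places the start of Irgm1 further out, at 48871683, so this window lies inside the GENCODE gene. The motif was not found in this window before Ifi47. Of the 32851 windows, 2.98% hold it.

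MHC class I genes, through which tumour and other cells show peptides to CD8 T cells, lay mostly within the fold in the CD8 T cells themselves. Of 20 members, 18 were within the fold, 2 above and 0 below it (10.7% and 10.6% over all genes), with a summed log2 ratio of 0.14 (0.11 to 0.17). Tap2, a subunit of the peptide transporter, held 64 and 157 UMIs (0.61, 0.18 to 1.05). B2m, the light chain, was level at 7292 and 6995 CPM (-0.06, -0.12 to 0.00).

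The heat-shock genes with the smallest ratios were the inducible ones. Of 21 members of the heat-shock list, 0 were at least 1.5-fold higher and 4 were lower (10.7% and 10.6% over all genes), and 17 lay within the fold. The summed log2 ratio was -0.26 (-0.32 to -0.20), whereas the median was -0.07. Hspa1a, an inducible HSP70 chaperone, held 341 UMIs in 30 untreated cells (673 CPM, 603 to 748) and 68 in 21 NAM cells (83.5 CPM, 64.8 to 106), a ratio of -3.01 (-3.41 to -2.63) that was -0.80 (-1.76 to 0.16) in the cells with no C1q UMI. Hspa1b, its neighbour and near copy, held 44 and 10 UMIs (-2.82, -3.98 to -1.81). Dnajb1, an HSP40 that works with HSP70, held 164 and 108 (-1.29, -1.65 to -0.93), and Hsph1 held 49 and 29 (-1.44, -2.16 to -0.75). Hspa8, the constitutive HSP70, was lower but within the fold, at 2933 and 2677 CPM (-0.13, -0.23 to -0.04).

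Hspa1a and Hspa1b lie at chr17:34969190-34972156 and chr17:34956436-34959238 on the minus strand. Their last 500 bases share no word of 50 bases, so 3′ counts can separate them. Hspa1a is shown with the 250 bases before its start, at chr17:34972157-34972406 on the minus strand (RefSeq, GRCm38.p6), because it has the smallest ratio of any named gene. Capitals mark GAANNTTC, a pair of the inverted units that heat-shock factor binds.
Hspa1a: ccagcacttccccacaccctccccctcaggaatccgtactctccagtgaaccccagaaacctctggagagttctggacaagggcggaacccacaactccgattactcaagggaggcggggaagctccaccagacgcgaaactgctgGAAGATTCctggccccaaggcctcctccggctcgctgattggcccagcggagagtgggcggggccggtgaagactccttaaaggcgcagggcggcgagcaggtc
The match lies 104 bases before the start. The window of Hspa1b, at chr17:34959239-34959488, differs from it at 3 of 250 bases and has the same match. GAANNTTC was not found in the windows of Dnajb1 and Hsph1 that were searched, and 6.69% of the 32851 windows hold it. The same units in the opposite order were not searched for, and the Hsph1 window holds such a pair. No contrast between Hspa1a and these genes is therefore read from the search.

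Glycolysis and hypoxia genes were higher in NAM cells across most of the list. Of 25 members, 5 were at least 1.5-fold higher and 2 lower (10.7% and 10.6% over all genes), 18 lay within the fold, and 22 had a ratio above 0. The summed level was 8997 and 11072 CPM, a log2 ratio of 0.30 (0.25 to 0.35) and 0.26 without the deepest cell. Ldha, lactate dehydrogenase, stood at 1072 and 1429 CPM (0.42, 0.27 to 0.57), but was at -0.34 (-0.76 to 0.09) with no C1q UMI. Slc16a3, a lactate exporter, held 28 and 77 UMIs (0.78, 0.13 to 1.45), Pfkp, a phosphofructokinase, 42 and 113 (0.74, 0.22 to 1.29) and Ddit4, an mTORC1 inhibitor induced by stress, 64 and 187 (0.86, 0.45 to 1.30). In the 42 cells with no C1q UMI the list lay at -0.10 (-0.25 to 0.05). The glucose transporter Slc2a3 was lower, with 29 and 25 UMIs (-0.90, -1.73 to -0.08).

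Oxidative phosphorylation genes lay within the fold almost throughout. Of 44 members, 43 were within the fold, 1 above and 0 below it (10.7% and 10.6% over all genes). Their summed log2 ratio was 0.15 (0.11 to 0.18), with a median of 0.18. Mitochondrially encoded genes had 0.07 (0.03 to 0.10), with 10 of 12 within the fold, 0 above and 2 below it.

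Genes that make or use NAD, which NAM feeds, were at low counts. Of 31 genes of that list, 12 had at least 20 UMIs, and of these 3 were higher and 1 lower (10.7% and 10.6% over all genes), with 8 within the fold. The summed level was 527 and 577 CPM (0.13, -0.09 to 0.35), a ratio whose interval holds 0. Nmrk1, a nicotinamide riboside kinase, held 19 and 53 UMIs (0.80, 0.02 to 1.64), and Nadk, which makes NADP, 17 and 47 (0.78, -0.04 to 1.68). Nampt, the rate-limiting enzyme that recycles nicotinamide, held 21 and 27 UMIs (-0.32, -1.20 to 0.57). A difference in Nampt was not detectable at this depth.

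Actb was the most abundant gene with a large ratio. It encodes beta-actin, lies at chr5:142903115-142906754 on the minus strand, and stood at 11803 CPM in untreated and 5352 CPM in NAM cells (-1.14, -1.20 to -1.08), with and without the deepest cell below -1.10. Of the 27 cytoskeleton and activation genes, 25 lay within the fold, 1 above and 1 below it (10.7% and 10.6% over all genes). Their median ratio was 0.01, whereas their summed log2 ratio was -0.18 (-0.20 to -0.16).

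Some markers of other cells differed between the libraries through single members. The MHC class II list had a log2 ratio of -0.93 (-1.02 to -0.85) over all members and 0.04 without the 3 cells rich in MHC class II or red cell UMIs, since 1 cell held 76.1% of its untreated and 1 cell 52.0% of its NAM UMIs. Cst3, a protease inhibitor abundant in myeloid cells, had a ratio of 1.04, of which 529 of 862 NAM UMIs lay in 1 cell, and 0.05 without those 3 cells. Cfp (properdin) was at -1.79 and at 0.07 without them. Red cell genes held 12 UMIs in untreated and 6717 in NAM cells, of which 6664 lay in 1 cell. The NK marker list was at -0.38 (-0.57 to -0.19) and at 0.06 (-0.19 to 0.31) without the 3 top cells of each library, and 1 untreated cell held 113 of its 412 UMIs in that library. The CD4 and regulatory T-cell list did not rest on single members: it stood at 697 and 919 CPM, a ratio of 0.40 (0.21 to 0.59), 0.41 without the 3 cells and 0.42 without the 3 top cells of each library, with a UMI in 66.7% and 80.3% of thinned cells. Its part in the other results was not tested. Of that list, Il2ra and Tnfrsf4 were above the fold and Cd4, with 14 and 6 UMIs, below it.

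**Figure D4:**
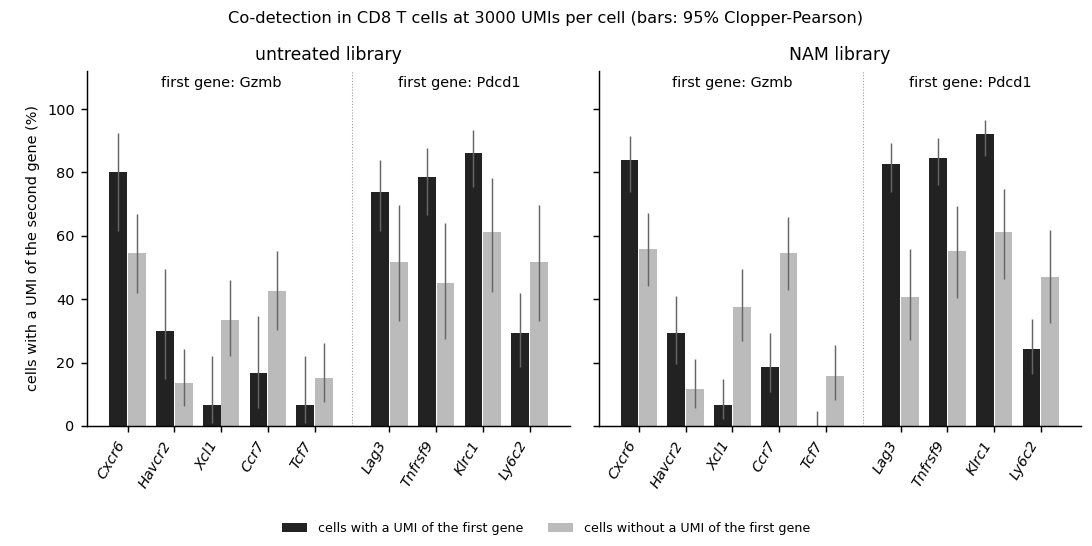
Share of CD8 T cells with a UMI of a second gene, in percent, among cells with (black) and without (grey) a UMI of Gzmb or Pdcd1, after thinning to 3000 UMIs, for each library, with exact 95% intervals. In both libraries Gzmb-positive cells carry more Cxcr6 and less Xcl1 and Ccr7, and Pdcd1-positive cells carry more Lag3, Tnfrsf9 and Klrc1 and less Ly6c2.

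CD8 T cells with and without a Gzmb UMI differed in several other genes. After thinning, 105 cells had a Gzmb UMI and 143 had none. Cxcr6 was seen in 82.9% of the first and 55.2% of the second (untreated 80.0% and 54.5%, NAM 84.0% and 55.8%), and Havcr2 in 29.5% and 12.6%. Xcl1 went the other way, at 6.67% of cells with Gzmb and 35.7% of cells without (untreated 6.67% and 33.3%, NAM 6.67% and 37.7%). Ccr7 was seen in 18.1% and 49.0%, and Tcf7 in 1.90% and 15.4%. Gzmb and Xcl1 thus seldom met in a cell, although both had a ratio above 0 between the libraries. Pdcd1 stood at 67.6% and 67.8%. The order was not the same in both libraries for every gene: Lag3 was at 60.0% and 69.7% in untreated but at 76.0% and 62.3% in NAM cells. Among cells with and without a Ccr7 UMI, Tcf7 was at 9.09% and 14.3% in untreated but at 16.1% and 3.12% in NAM cells.

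Cells with Xcl1 form the other end. Of 58 cells with an Xcl1 UMI after thinning, 60.3% had Ccr7, against 28.4% of the 190 without. Cxcr6 was seen in 37.9% and 75.8%, and Gzmk in 6.90% and 26.8%. For Cxcr6 the shares were 29.2% and 73.6% in untreated and 44.1% and 77.1% in NAM cells. Cells with Xcl1 were 24 in the untreated and 34 in the NAM set.

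Cells with a Pdcd1 UMI more often had a UMI of several other receptors. Of 168 cells with a Pdcd1 UMI, 79.2% had Lag3, 82.1% Tnfrsf9 and 89.9% Klrc1, against 45.0%, 51.2% and 61.2% of the 80 cells without. For Havcr2 the shares were 21.5% and 12.9% in untreated and 22.3% and 16.3% in NAM cells, with overlapping intervals. Ly6c2, a surface protein of central memory and circulating effector cells, was seen in 26.2% and 48.8%. Of 166 cells with Cxcr6, 27.7% had Havcr2, against 3.66% of the 82 without. All cells were set at the same depth for these shares, which are a description over cells of 1 pool per group and carry no test.

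**Figure D5:**
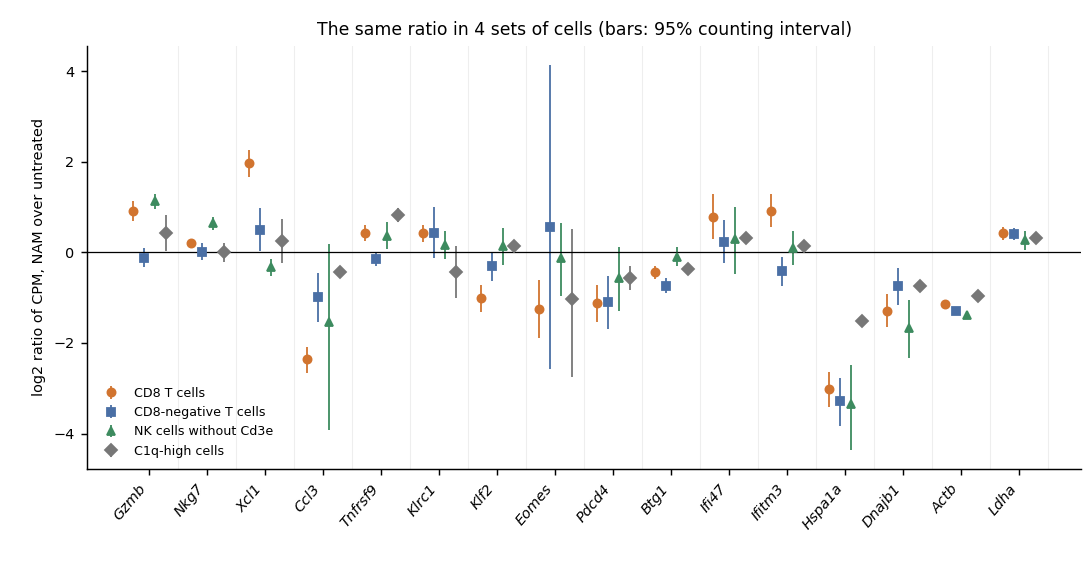
Log2 ratio of CPM, NAM over untreated, of 16 genes in CD8 T cells, CD8-negative T cells, NK cells without Cd3e and C1q-high cells, with exact 95% counting intervals. Actb, Hspa1a and Dnajb1 lie below 0 in all 4 sets, whereas Gzmb lies above 0 in CD8 T cells and NK cells and near 0 in CD8-negative T cells.

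Several ratios had the same sign in 4 sets of cells. The 4 sets come from the same 2 libraries and the differences between sets were not tested. Actb had a log2 ratio of -1.14 in CD8 T cells, -1.29 in CD8-negative T cells, -1.39 in NK cells without Cd3e and -0.96 in C1q-high cells. Hspa1a had -3.01, -3.28, -3.34 and -1.52, and Dnajb1 -1.29, -0.75, -1.66 and -0.74. Pdcd4 was lower in each set as well (-1.13, -1.09, -0.56 and -0.56), and Ldha higher (0.42, 0.40, 0.26 and 0.32).

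Other ratios differed in sign or size between the sets, as values with no test. Gzmb had 0.91 in CD8 T cells and 1.12 in NK cells without Cd3e, but -0.12 in CD8-negative T cells. Klf2 had -1.02 in CD8 T cells and -0.31, 0.14 and 0.13 in the other 3 sets. Irgm1 had 1.52, and -0.03, -0.28 and 0.57 in the others. The type I interferon list as a whole was at 0.37 (0.28 to 0.46) in CD8 T cells, -0.27 (-0.34 to -0.20) in CD8-negative T cells, -0.47 (-0.62 to -0.32) in NK cells and 0.10 (0.09 to 0.11) in C1q-high cells. The cell cycle inhibitor list was at -0.39 and -0.42 in the 2 sets of T cells, and at 0.21 and 0.01 in NK and C1q-high cells.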

How the data were processed

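The deposited tables give the UMI count of each gene in each cell. The authors built 10x 3′ version 2 libraries and ran Cell Ranger 2.1.0 on mm10. They were raw, whole numbers, without normalization, for 27998 gene symbols. The gene annotation used for counting is not given in the sources used here, and the authors had removed cells under 3000 UMIs.

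The gate, its members and the 37 gene lists (713 entries, 22 without a match in the files) were chosen with earlier results of these data known. UMIs were summed over the CD8 T cells of each library and divided by the total of those cells (CPM, counts per 1000000) with exact Poisson limits. Ratios carry an exact conditional binomial interval and shares a Clopper-Pearson interval, all at 95%, and none of them covers more than counting error. Groups of a single library allow no test. A gene was counted as higher or lower past 1.5-fold. Where a set had 0 UMIs, 3 counts over the set gave the bound, which also entered the medians. Cells were thinned to 3000 UMIs with seed 1. No cells were removed as doublets.

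Genes were named from the lists by UMI count and ratio, from the 10 largest and 10 smallest ratios among genes with 100 or more UMIs (gate genes and other cells' markers left out), and from the 15 largest folds over all other cells. Alternatives changed the gate, depth, scaling, thresholds and single cells kept. 1 gene that the rule names is not reported here. The scripts were tested on simulated data. Positions come from GENCODE vM21 (GRCm38) and promoters from RefSeq (GRCm38.p6). Python 3.11.15, NumPy 2.4.6, SciPy 1.17.1, pandas 2.3.3 and matplotlib 3.10.9 were used.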

Additional observations from a re-analysis of the deposited data

Results flagged for a closer look

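Of 73 genes named, 19 had a ratio in CD8 T cells whose counting interval lay on one side of 0 while that of another cell set of the same libraries lay on the other, in 25 pairs. The rule was not run over all genes, so no background share stands beside this count. Some of the named genes were chosen for large ratios. C1q-high cells held 21064526 and 23564589 UMIs, so ratios close to 0 can qualify there. All values are log2 ratios of CPM, NAM over untreated, and the differences between sets were not tested.

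Chemokine and granzyme genes parted from NK cells without Cd3e. Gzmf was at 4.44 in CD8 T cells (a bound, with 0 untreated UMIs) and at -7.78 in NK cells, which held 603 and 1 UMIs, and at -1.62 in C1q-high cells. Gzmc was at 3.02 (a bound) and at -1.29 in NK cells, -2.79 in CD8-negative T cells and -1.92 in C1q-high cells. Gzmd was at 3.26 and at -1.86 in NK cells. Gzma was at -2.08 and at 1.03 in NK cells, and Xcl1 at 1.96 and -0.33. In CD8 T cells each of these 5 rests largely on 1 to 3 cells. The NK sets held 80 and 40 cells, and 1 untreated NK cell held 39957 of 577846 UMIs. How the NK counts here and below are spread over those cells was not examined.

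Genes of memory and activation parted too. Tcf7 was at -1.64 in CD8 T cells and at 1.09 in NK cells. Klf2 was at -1.02 and at 0.13 in C1q-high cells. Il7r was at 0.76 and at -0.86 in CD8-negative T cells, Cd7 at -1.26 and 0.44, and Tnfrsf9 at 0.43 and -0.16.

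Of the S phase genes, Mcm6 was at 0.94 and at -0.19 in C1q-high cells, and Tk1 at 1.11 and -0.20. Ddit4 was at 0.86 and at -0.46 in CD8-negative T cells, and Ifitm3 at 0.92 and -0.42. Ifitm1 was at 1.10 and at -6.23 in NK cells, which held 206 and 1 UMIs.

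Myeloid genes were carried by 2 members. Cst3 was at 1.04 in CD8 T cells, at -1.55 in NK cells and at -0.056 in C1q-high cells. Cfp was at -1.79 and at 0.053 in C1q-high cells. Cd74 was at -1.04, at 0.68 in CD8-negative T cells and at 0.34 in C1q-high cells, and H2-Aa at -1.16, 0.60 and 0.38. Without the 3 members rich in MHC class II or red cell UMIs, Cst3 was at 0.05, Cfp at 0.07, Cd74 at 0.10 and H2-Aa at -0.34 in CD8 T cells.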

How the results depend on the processing

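Each of 88 results was recomputed under up to 14 alternatives, giving 962 values, of which 769 stayed within the counting interval of the value reported (for counts of genes, within 1.5 times), 152 moved beyond it and 41 changed sign from a value whose interval left out 0. No paired analysis was possible because each group holds 1 library, and no replicate could be left out. The ratio of shares of CD8 T cells stayed between 0.49 and 0.54 under the alternatives on the gate, the deepest cell and the 3 cells below, and no other alternative was applied to it, though with no C1q UMI its interval held 0 (-0.42 to 1.53). The alternative that leaves out cells with RNA of other T-cell types used Cd4 and Foxp3 only, because the symbols Trdc and Tcrg-C1 had no match. Leaving out cells rich in MHC class II or red cell UMIs was chosen after seeing the data. Leaving out 3 cells per library removes a larger share of 96 than of 152 cells. The cause of each shift below was not tested.

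The widest shifts came from the smallest sets. With no C1q UMI, 16 and 26 cells remained, and the summed log2 ratios became 0.36 for cytotoxic effectors, 0.53 for cytokines and chemokines, 0.069 for inhibitory and 0.14 for costimulatory receptors, 0.51 for naive and memory genes, 0.12 for cell cycle inhibitors, 0.22 for type I interferon, 0.035 for IFNγ, -0.35 for heat shock, -0.10 for glycolysis, -0.033 for oxidative phosphorylation and -0.089 for NAD genes, with 39 genes past the fold higher and 36 lower. Among genes, the sign changed for Fasl (-0.26), Serpinb9 (-0.14), Ccl4 (0.92), Tnfrsf9 (-0.49), Tnfrsf4 (-0.96), Tcf7 (1.86), Klf2 (0.83), Il7r (-0.31), Eomes (0.27), Irf8 (-0.20), Cdkn1b (1.27), Tk1 (-0.73), Ifi47 (-0.029), Igtp (-0.20), Irf1 (-0.51), Ldha (-0.34), Uchl3 (-0.47), Cd7 (1.44) and Cd74 (0.33).

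With cells of 3 or more G2 and M phase UMIs left out, 30 and 55 cells remained. The lists became 0.28 for cytotoxic effectors, 0.28 for cytokines and chemokines, 0.37 for inhibitory and 0.47 for costimulatory receptors, -0.49 for cell cycle inhibitors, 0.46 for type I interferon, 0.28 for IFNγ, 0.056 for oxidative phosphorylation and -0.14 for NAD genes, with 84 genes higher and 56 lower. The sign changed for Gzma (2.44), Serpinb9 (-0.11), Xcl1 (-0.42), Ccl4 (0.52), Tk1 (-0.52), Hspa8 (0.048) and Cfp (0.39). Gzmf, also counted among the 41, was at -2.52 with 3 or fewer UMIs in each set. That sign comes from the 3 counts set in place of 0 untreated UMIs, so no change of direction is read for Gzmf.

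Other settings moved fewer values. Without the deepest 10% of each library, cytotoxic effectors were at 0.31, cell cycle inhibitors at -0.28, heat shock at -0.37 and Cst3 at -0.12. With the 3 richest cells of each library dropped, cytotoxic effectors were at 0.30, Gzma at 1.29, Cst3 at -0.033 and Cd74 at 0.13. Without the deepest cell, naive and memory genes were at 0.14. Median-of-ratios scaling gave -0.14 for cytokines and chemokines, -0.32 for heat shock, 0.24 for glycolysis and 0.090 for oxidative phosphorylation. Thinning gave 0.35 for costimulatory receptors, 0.47 for type I interferon and 0.11 for oxidative phosphorylation, with 106 genes lower. Equal weight per cell gave -0.32 for heat shock. Without cells with a Cd4 or Foxp3 UMI, costimulatory receptors were at 0.21, Cfp at 0.28, Cd74 at 1.05 and H2-Aa at 1.13. Without the 3 cells rich in MHC class II or red cell UMIs, Cfp was at 0.069 and Cd74 at 0.10. Genes past the fold numbered 613 higher and 608 lower with 20 or more UMIs, 77 and 65 with 100 or more, and 41 and 47 at a fold of 2. With sets of 96 and 152 cells, genes of few UMIs carry wide counting intervals, such as Prf1 with 18 and 17 UMIs (-1.81 to 0.27).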
